A study of Homo sapiens with 4 samples.

Results

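The serpin family comprised 33 of the 18398 transcript rows measured in each library, chosen as every row whose gene symbol is SERPIN followed by a clade letter from A to I and a number. By clade, the rows held 10 genes of clade A, 12 of clade B, 1 each of clades C, D, G and H, 3 of clade E, and 2 each of clades F and I. The rule used the symbols alone and no measured value, although it was set with earlier results of these data known.

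RNA of Huh1 and Huh7, a pair of established human hepatocellular carcinoma (HCC) cell lines, was sequenced after transfection with an siRNA against CDCA8 (CDCA8siRNA) or a negative control siRNA (NCsiRNA). CDCA8 encodes borealin, a subunit of the chromosomal passenger complex that acts in cell division. The 4 groups were Huh1 with NCsiRNA, Huh1 with CDCA8siRNA, Huh7 with NCsiRNA and Huh7 with CDCA8siRNA, and each held 1 library, so no spread between replicate cultures was measured. Every group had received an siRNA, 1 CDCA8 siRNA stood for the knockdown, and the libraries came from total RNA with a kit that does not mark strand.

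Serpins share a fold in which an exposed loop serves as bait for a protease. After cleavage the loop inserts into the body of the serpin, and the protease stays trapped in a covalent complex. The liver secretes most serpins of plasma, among them the inhibitors of neutrophil elastase, thrombin, plasmin and the first complement component, whereas clade B serpins lack a classical secretion signal and mostly act inside cells. Several members have given up inhibition and carry hormones or fold collagen instead.

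The depth estimated from the values was between 12197606 and 13384836 reads per library. Levels are given as RPKM, a read count divided by transcript length and by library depth, which allows genes of different length to be compared. Pairs of levels are given with NCsiRNA first and CDCA8siRNA second. CDCA8 itself stood at 24.1 and 5.86 RPKM in Huh1 and at 51.5 and 7.36 RPKM in Huh7, so that 24.3% and 14.3% of its level were left. The hepatocyte markers fit the label of liver cells, with 8 of 8 at 1 RPKM or more and albumin (ALB) between 721 and 3447 RPKM. Endothelial markers, of which 3 of the 4 listed were measured, summed to at most 0.0247 RPKM in any library. Keratinocyte markers summed to at most 0.39 RPKM. Mesenchymal markers stood apart between the lines, with sums of 12.1 and 25.9 RPKM in Huh1 and 284 and 377 RPKM in Huh7, mostly LUM and type I collagen. Leukocyte markers summed to between 15.0 and 27.7 RPKM, which came mostly from LYZ and CD68, while the defining marker PTPRC read at most 0.417 RPKM.

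Promoter sequence is shown for the clade A genes because they formed the largest group of detected members and because liver transcription of several of them is known to use hepatocyte nuclear factor 1 (HNF1). RefSeq windows of 300 bases, from 250 before to 50 after an annotated start on GRCh38.p14, were found for 27 of the 33 genes, 41 windows in all. The HNF1 half-site GTTAAT was searched on both strands. It was present in 5 of the 14 clade A windows, belonging to 5 of 10 genes, and in 6.88% of all 35116 RefSeq windows of that length. The stretches below show it in capitals, on the strand of the gene, for SERPINA1 (chr14:94388646-94388705, minus strand), SERPINA10 (chr14:94293291-94293350, minus), SERPINA6 (chr14:94323419-94323478, minus), SERPINA4 (chr14:94561340-94561399, plus) and SERPINA7 (chrX:106038783-106038842, minus).
SERPINA1: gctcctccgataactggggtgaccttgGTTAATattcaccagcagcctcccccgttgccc
SERPINA10: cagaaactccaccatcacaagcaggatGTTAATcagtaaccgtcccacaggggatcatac
SERPINA6: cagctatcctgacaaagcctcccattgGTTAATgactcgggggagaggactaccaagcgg
SERPINA4: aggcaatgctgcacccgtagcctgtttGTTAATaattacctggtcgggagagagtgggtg
SERPINA7: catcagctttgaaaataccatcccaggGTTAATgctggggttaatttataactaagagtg

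The half-site began 76 bases before the RefSeq start in SERPINA1, 55 in SERPINA10, 115 in SERPINA6, 75 in SERPINA4 and 88 in SERPINA7. SERPINA6 held a further match at 170 bases and the reverse complement at 58 bases, and SERPINA7 a further match at 76 bases, which is still in lower case above. The RefSeq starts lay 218, 244, 58, 351 and 11 bases, in the order of the stretches, from the annotated start of the transcript that was measured. SERPINA10 had another window, whose start lay only 32 bases from that of the measured transcript, and it did not hold the half-site. The matches describe letters and were not tested as binding sites. All 5 genes with the half-site reached 1 RPKM in at least 1 library, as did SERPINA3 and SERPINA5 of the 5 clade A genes without it.

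For clade H, whose only member SERPINH1 is a heat-shock protein, the stress motif GAANNTTC, 2 facing half-sites of the heat shock element, was searched on both strands. It was present in 1 of the 2 SERPINH1 windows and in 6.77% of all windows. Other serpins held it too, in 3 of 14 clade A windows and 1 of 17 clade B windows. The stretch lies at chr11:75562155-75562216 on the plus strand of GRCh38.p14, with the motif beginning 71 bases before the RefSeq start, which was 167 bases from the start of the measured transcript.
SERPINH1: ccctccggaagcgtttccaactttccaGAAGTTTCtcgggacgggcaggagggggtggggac

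Of the 33 serpin genes, 20 reached 1 RPKM in at least 1 library and 16 in all 4, 8 were above 0 but under 1 RPKM throughout, and 5 were listed at 0 in every library. The share that reached 1 RPKM, 60.6%, compares with 66.0% of all rows. Single libraries held 18 or 19 serpins at that level. The summed level of the family was 952.8 and 834.1 RPKM in Huh1 and 1022 and 843.6 RPKM in Huh7.

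**Figure D1:**
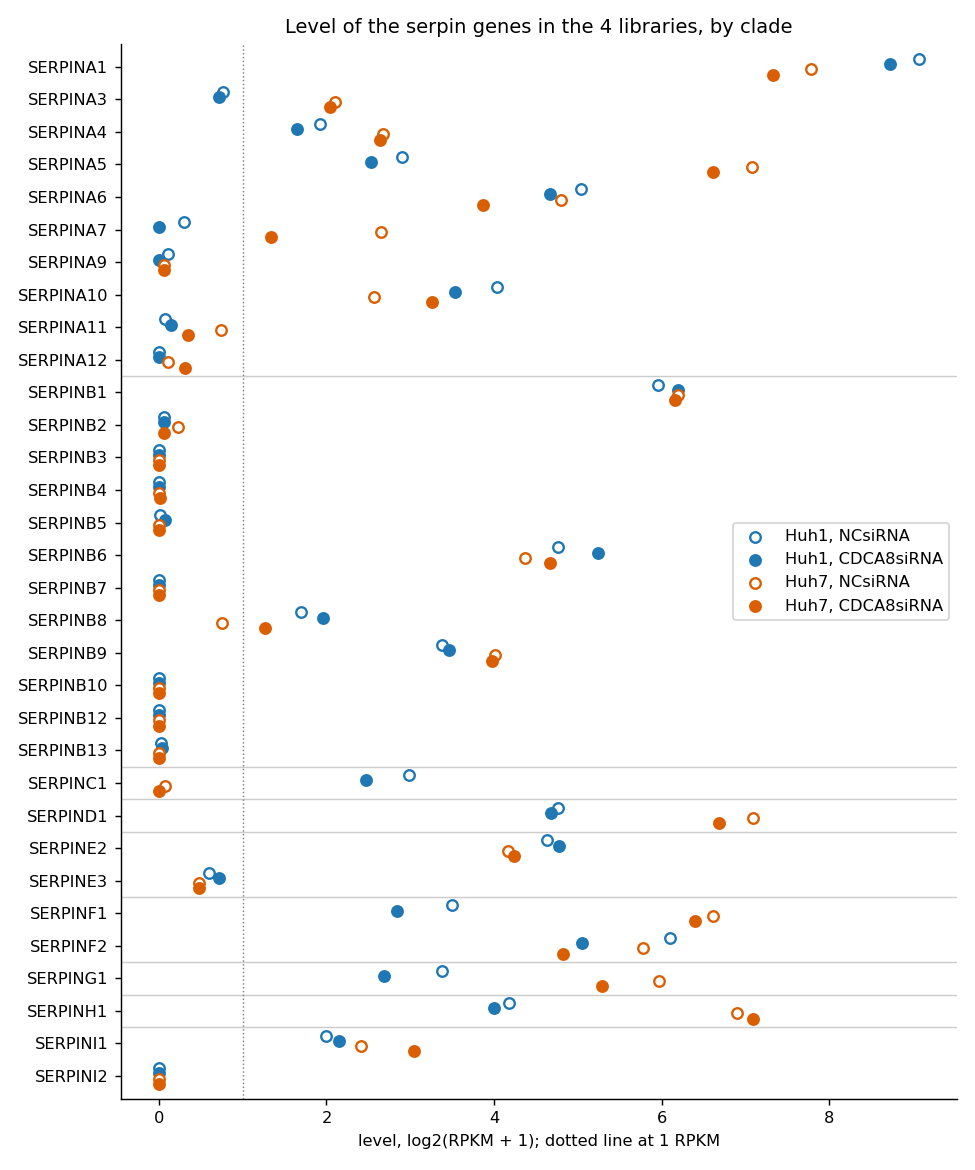
Level of the serpin genes, all but 1 of the 33, on a log2(RPKM + 1) axis, 1 point per library, in Huh1 (blue) and Huh7 (orange) with NCsiRNA (open) or CDCA8siRNA (filled), with grey lines between clades. SERPINA1 lies to the right of every other member in all 4 libraries, and 13 genes stay left of the dotted line at 1 RPKM.

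SERPINA1, alpha-1-antitrypsin, the main plasma inhibitor of neutrophil elastase, stood at 538 and 420.3 RPKM in Huh1 and at 219 and 159.7 RPKM in Huh7. It was the highest serpin of each library and made up 56.5% and 50.4% of the family sum in Huh1 but 21.4% and 18.9% in Huh7. Among all 18398 rows it ranked 129 and 154 in Huh1 and 247 and 381 in Huh7. Below it the order differed between the lines. In Huh1 with NCsiRNA the most abundant named genes below it were SERPINF2, SERPINB1 and SERPINA6, and in Huh7 with NCsiRNA by SERPIND1, SERPINA5, SERPINH1 and SERPINF1.

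The other inhibitors of clade A were lower and unequal between the lines. SERPINA5, the protein C inhibitor, stood at 6.46 and 4.77 RPKM in Huh1 and at 134 and 96.7 RPKM in Huh7. SERPINA10, the protein Z-dependent inhibitor of coagulation factor Xa, stood at 15.4 and 10.6 RPKM in Huh1 and at 4.91 and 8.57 RPKM in Huh7. Thus SERPINA5 was a leading serpin of Huh7 alone, while SERPINA10 was higher in both Huh1 libraries. SERPINA4, kallistatin, an inhibitor of tissue kallikrein, stood at 2.79 and 2.14 RPKM in Huh1 and at 5.38 and 5.20 RPKM in Huh7. SERPINA3, alpha-1-antichymotrypsin, an acute-phase inhibitor of cathepsin G, stood at 0.705 and 0.648 RPKM in Huh1 and at 3.30 and 3.13 RPKM in Huh7. In both genes the Huh7 libraries were above the Huh1 libraries whichever siRNA was given. SERPINA4 and SERPINA5 share exon bases on 1 strand, and SERPINA3 and SERPINA5 each share some with another annotated gene, so reads in these stretches could have been assigned to either.

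The hormone carriers of clade A do not inhibit proteases. SERPINA6, corticosteroid-binding globulin, stood at 31.7 and 24.4 RPKM in Huh1 and at 26.7 and 13.6 RPKM in Huh7. SERPINA7, thyroxine-binding globulin, stood at 0.234 and 0 RPKM in Huh1 and at 5.29 and 1.53 RPKM in Huh7. The first was thus present in both lines and the second at 1 RPKM or more in Huh7 only. The remaining clade A genes were near the limit of detection: SERPINA9 read at most 0.0812 RPKM, SERPINA12 (vaspin) at most 0.237 RPKM and SERPINA11 at most 0.669 RPKM.

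Among the 12 clade B genes, 4 reached 1 RPKM. SERPINB1, an inhibitor of neutrophil serine proteases, stood at 60.9 and 72.2 RPKM in Huh1 and at 72.0 and 70.3 RPKM in Huh7, close to even between the lines. SERPINB6, an intracellular inhibitor of cathepsin G, stood at 26.1 and 36.7 RPKM in Huh1 and at 19.6 and 24.5 RPKM in Huh7. SERPINB9, the inhibitor of granzyme B, stood at 9.38 and 10.03 RPKM in Huh1 and at 15.1 and 14.7 RPKM in Huh7. These 3 genes lie next to each other on chromosome 6, and each exceeded 1 RPKM in all 4 libraries. SERPINB8, an inhibitor of furin, stood at 2.24 and 2.90 RPKM in Huh1 and at 0.681 and 1.40 RPKM in Huh7. An antisense gene overlaps SERPINB8, and reads of its strands cannot be told apart here.

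The other 8 clade B genes, all on chromosome 18 with SERPINB8, stayed under 1 RPKM. SERPINB3, SERPINB7, SERPINB10 and SERPINB12 were listed at 0 in every library, and SERPINB4 at 0 in all but Huh7 with CDCA8siRNA, where it read 0.00677 RPKM. SERPINB3 and SERPINB4, the squamous cell carcinoma antigens, are near-identical copies, so their values are uncertain. SERPINB2 (plasminogen activator inhibitor 2) read at most 0.172 RPKM, SERPINB5 (maspin) at most 0.0504 RPKM and SERPINB13 at most 0.0238 RPKM. A count of 0 allows up to 3 reads, which for the 5 serpins at 0 throughout corresponds to between 0.102 and 0.202 RPKM, counting error only. All 9 measured serpins of the chromosome 18 cluster summed to between 0.852 and 3.01 RPKM per library, most of it SERPINB8.

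**Figure D2:**
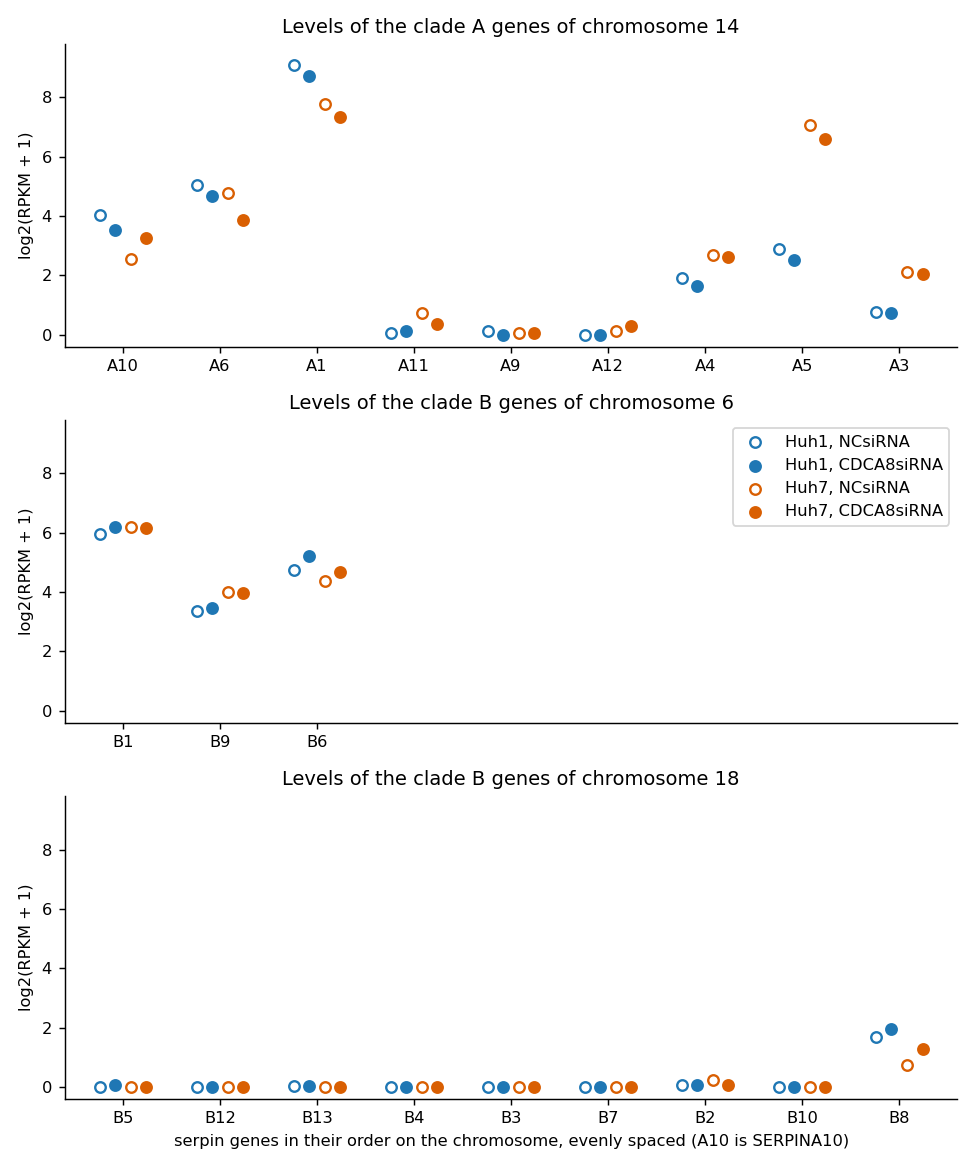
Levels on a log2(RPKM + 1) axis of the serpins of chromosomes 14, 6 and 18 in their order along each chromosome, evenly spaced and not to scale, 1 point per library coloured as for the levels of all members. On chromosome 14 SERPINA11, SERPINA9 and SERPINA12 lie near 0 between higher neighbours, on chromosome 6 all 3 genes are present, and on chromosome 18 SERPINB8 alone reaches 1 RPKM.

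Gene order on chromosome 14 ran SERPINA10, SERPINA6, SERPINA1, SERPINA11, SERPINA9, SERPINA12, SERPINA4, SERPINA5 and SERPINA3, leaving aside SERPINA2, which was not analysed here. Of these 9 measured genes 6 reached 1 RPKM. The 3 that did not stand next to each other, in the middle of the row.

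Coagulation and fibrinolysis serpins are also found outside clades A and B. SERPINC1, antithrombin, the main inhibitor of thrombin and factor Xa in plasma, stood at 6.92 and 4.55 RPKM in Huh1 and at 0.0513 and 0 RPKM in Huh7. In reads, these were about 148 and 96 in Huh1 against 1 and 0 in Huh7. SERPIND1, heparin cofactor II, which also inhibits thrombin, had the opposite order, with 26.2 and 24.6 RPKM in Huh1 and 135 and 102 RPKM in Huh7. SERPINF2, alpha-2-antiplasmin, the main inhibitor of plasmin, stood at 67.6 and 32.2 RPKM in Huh1 and at 54.0 and 27.3 RPKM in Huh7. For SERPINF2 the libraries paired by siRNA and not by line, with both NCsiRNA libraries above both CDCA8siRNA libraries.

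SERPINE2, protease nexin 1, which inhibits thrombin at cell surfaces, stood at 23.9 and 26.3 RPKM in Huh1 and at 17.02 and 17.8 RPKM in Huh7. SERPINE2 was thus higher in both Huh1 libraries, and SERPINE3, a little-studied relative, stayed between 0.396 and 0.644 RPKM. SERPINI1, neuroserpin, an inhibitor of tissue plasminogen activator best known from neurons, stood at 2.97 and 3.45 RPKM in Huh1 and at 4.34 and 7.22 RPKM in Huh7. SERPINI2, the other clade I gene and also on chromosome 3, was listed at 0 in every library.

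The last 3 members were higher in Huh7. SERPING1, the C1 inhibitor of complement and the contact system, stood at 9.42 and 5.45 RPKM in Huh1 and at 61.5 and 37.9 RPKM in Huh7. SERPINF1, pigment epithelium-derived factor, a secreted protein without inhibitory activity, stood at 10.3 and 6.18 RPKM in Huh1 and at 97.1 and 83.4 RPKM in Huh7. SERPINH1, the collagen chaperone HSP47 of the endoplasmic reticulum, stood at 17.1 and 15.0 RPKM in Huh1 and at 119 and 136 RPKM in Huh7. In each of the 3 genes every Huh7 library exceeded every Huh1 library.

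To ask how the serpins responded to CDCA8 silencing, the levels with CDCA8siRNA were compared with those with NCsiRNA in each line as differences of log2(RPKM + 1), over genes with at least 1 RPKM in either library of the pair. The added 1 understates the change of low genes. Each difference is given with the SD that the sampling of reads alone gives, which holds no variation between cultures. At 2-fold, 1 of 18 serpins in Huh1 was lower and 0 were higher, against 0.174% of 10940 genes lower and 0.32% higher. In Huh7, 1 of 19 serpins was lower and 0 were higher, against 0.7% of 11565 genes lower and 0.873% higher. With 1 serpin past 2-fold in each line, those shares say nothing about the family. A lower level in bulk RNA may reflect fewer cells making a transcript or less of it per cell, which cannot be told apart.

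SERPINF2 was the serpin past 2-fold in Huh1, with a difference of -1.05 ± 0.055 (sampling SD) that left 47.7% of its level. In Huh7 the difference was -0.96 ± 0.062 and 50.6% was left, just short of 2-fold on the log2(RPKM + 1) scale. SERPINA7 was past 2-fold in Huh7, with a difference of -1.31 ± 0.20 that left 28.96% of its level, from about 103 to 30 reads. In Huh1 SERPINA7 had only about 5 reads with NCsiRNA, too few for a comparison. Next in Huh7 after these came SERPINA6, at -0.92 ± 0.10, which differed by -0.37 ± 0.083 in Huh1. Next in Huh1 after SERPINF2 came SERPING1 and SERPINF1, at -0.69 ± 0.13 and -0.65 ± 0.14.

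**Figure D3:**
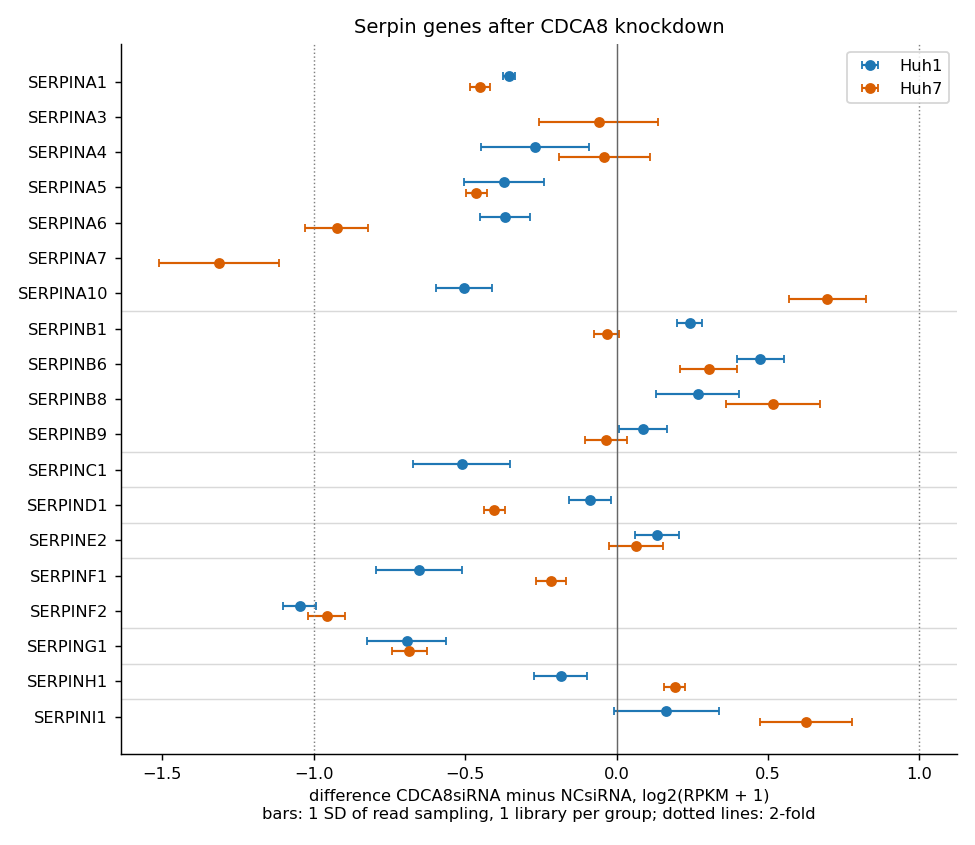
Difference of log2(RPKM + 1) between CDCA8siRNA and NCsiRNA for 19 of the 20 serpins that passed the minimum level in Huh1 (blue) or Huh7 (orange), 1 library per group, with bars of 1 SD of read sampling and dotted lines at 2-fold. SERPINF2 and SERPING1 lie far left of 0 in both lines, SERPINB6 lies right of 0 in both, and SERPINA10 lies on opposite sides.

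Since the lines are a pair of separate backgrounds, a limma model with the siRNA and the cell line as terms was fitted to the 4 libraries, for genes with at least 1 RPKM in each line. Its spread is that between the responses of the 2 lines, with 1 residual degree of freedom, and not that between cultures. By limma with Benjamini-Hochberg adjustment over 10357 genes, 6 of the 17 serpins in the fit fell, against 4.21% of all genes, and 1 rose, against 6.03%. The 6 that fell were SERPINF2, SERPING1, SERPINA6, SERPINA1, SERPINA5 and SERPINF1, 3 of 5 clade A genes with both of clade F and the member of clade G, and the 1 that rose was SERPINB6. No call held when low genes were kept in or when the cell line was left out of the model, where limma called 0 of 17039 and 0 of 10357 genes. At an unadjusted p under 0.05 these fits held 3 serpins higher and 7 lower, and 0 higher and 1 lower.

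SERPINF2 fell by 1.00 on the log2 scale over both lines (SE 0.0905, adjusted p = 0.000870, limma with Benjamini-Hochberg adjustment), lower in both lines. SERPING1 fell by 0.69 (SE 0.098, adjusted p = 0.00465, limma), with -0.69 ± 0.13 in Huh1 and -0.68 ± 0.059 in Huh7, the closest match between the lines among these genes. SERPINA1 fell by 0.40 (SE 0.073, adjusted p = 0.0116, limma), with -0.36 ± 0.020 and -0.45 ± 0.034. As SERPINA1 was the most abundant serpin, this was also the largest loss in RPKM.

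SERPINA6 fell by 0.65 (SE 0.13, adjusted p = 0.0186, limma), and SERPINA5 by 0.42 (SE 0.096, adjusted p = 0.0277, limma). SERPINA5 differed by -0.37 ± 0.13 in Huh1 and -0.46 ± 0.036 in Huh7, although its level differed widely between the lines. SERPINF1, the neighbour of SERPINF2 on chromosome 17, fell by 0.43 (SE 0.12, adjusted p = 0.0483, limma), with -0.65 ± 0.14 in Huh1 and -0.22 ± 0.049 in Huh7. The SERPINF1 call lay at the threshold and was lost with a pseudocount of 0.1 RPKM (adjusted p = 0.0507, limma), with upper quartile scaling (0.0624), without the variance trend (0.0897) and with genes of 1 line kept in (0.0686). Without the trend the calls of SERPINA1 (adjusted p = 0.0590, limma) and SERPINA5 (0.0550) were lost too.

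Some members, intracellular inhibitors among them, lay on the other side of 0. SERPINB6 rose by 0.39 (SE 0.099, adjusted p = 0.0387, limma), with 0.47 ± 0.077 in Huh1 and 0.30 ± 0.094 in Huh7, but the call was lost without the trend (0.0708) and with genes of 1 line kept in (0.0537). SERPINB8 differed by 0.27 ± 0.14 and 0.52 ± 0.16 and SERPINI1 by 0.16 ± 0.17 and 0.62 ± 0.15, in Huh1 and Huh7, and neither passed (adjusted p = 0.137 and 0.119, limma). In plain RPKM SERPINB8 was 2.06-fold higher in Huh7.

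Of the 17 serpins measured in both lines, 8 were lower in both by any amount, against 30.5% of 10357 genes, and 5 were higher in both, against 39% of genes. The 8 were SERPINA1, SERPINA4, SERPINA5, SERPINA6, SERPIND1, SERPINF1, SERPINF2 and SERPING1, and the 5 included SERPINB6, SERPINB8, SERPINE2 and SERPINI1. The remaining 4 of the 17, SERPINA10, SERPINB1, SERPINB9 and SERPINH1, had opposite signs in the lines. Medians were taken over the genes that passed in each line, which for clade A were unlike sets. The median difference of clade A was -0.37 in Huh1 (5 genes) and -0.45 in Huh7 (7 genes). That of clade B was 0.25 and 0.14 (4 genes in each line), and that of all genes 0.023 and 0.033.

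SERPINA10 was the widest split, at -0.50 ± 0.093 in Huh1 and 0.70 ± 0.13 in Huh7, so that 68.6% of its level was left in Huh1 while Huh7 reached 1.75-fold. The median over all members by limma, 0.0035, lay near 0 with calls on both sides. SERPIND1 differed by -0.087 ± 0.068 in Huh1 and -0.40 ± 0.034 in Huh7 and did not pass (adjusted p = 0.161, limma). SERPINA4 (-0.27 ± 0.18 and -0.041 ± 0.15) and SERPINE2 (0.13 ± 0.073 and 0.063 ± 0.089) differed by less than 2 sampling SDs in each line. SERPINC1 and SERPINA3 could be compared in 1 line each, SERPINC1 in Huh1 (-0.51 ± 0.16, 65.8% left) and SERPINA3 in Huh7 (-0.059 ± 0.20).

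Some other hepatocyte transcripts were lower along with the serpins that fell. Of the 8 hepatocyte markers, 5 fell by limma (ALB, APOB, TF, FGB and APOA1), against 4.21% of all genes, and the other 3 did not pass. Of those 3, TTR was higher in Huh7 (0.71 ± 0.096) and differed by -0.15 ± 0.22 in Huh1. AFP was higher in Huh1 (0.14 ± 0.067) but lower in Huh7 (-0.27 ± 0.013), and APOH was lower in both lines. The 8 markers' summed levels were 4782 and 3704 RPKM in Huh1, and 3080 and 2167 RPKM in Huh7. ALB fell by 0.53 on the log2 scale (adjusted p = 0.00587, limma with Benjamini-Hochberg adjustment). Of the 6 mesenchymal markers 4 reached 1 RPKM, of which LUM rose by 0.72 (adjusted p = 0.0130, limma). COL1A1, COL1A2 and COL3A1, at 1 RPKM or more in Huh7 only, were higher there by 0.22, 0.84 and 0.83 on the log2(RPKM + 1) scale, and DCN and PDGFRB stayed under 1 RPKM. Of the 4 leukocyte markers LYZ rose by 0.77 (adjusted p = 0.0129, limma), CD68 differed by -0.47 in Huh1 and 0.0073 in Huh7, and PTPRC and CD14 stayed under 1 RPKM. The part of these shifts in the serpin differences was not tested.

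The proteases that serpins inhibit were examined as a list. Of 34 proteases listed, 31 were in the files, 22 reached 1 RPKM and 16 entered the limma fit, of which 2 fell, against 4.21% of all genes, and 14 did not pass. With so few genes that share says nothing about the list. Prothrombin (F2) stood at 31.4 and 21.2 RPKM in Huh1 and at 19.4 and 15.9 RPKM in Huh7 and fell by 0.41 (adjusted p = 0.0428, limma). Coagulation factor VII (F7) stood at 2.44 and 1.14 RPKM in Huh1 and at 4.42 and 2.87 RPKM in Huh7 and fell by 0.58 (adjusted p = 0.0310, limma). On the log2(RPKM + 1) scale no protease of the list was past 2-fold in either line, while in plain RPKM F7 and F12 were lower by more than that in Huh1 (ratios of 0.469 and 0.481) and PLAU in Huh7 (0.493), and GZMB was higher in Huh1 (4.23, from 0.242 RPKM).

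Some serpins were more abundant than their best-known targets, and others were less abundant. Neutrophil elastase (ELANE) and cathepsin G (CTSG), targets of SERPINA1 and SERPINA3, were listed at 0 in every library. Plasminogen (PLG), whose active form SERPINF2 inhibits, read at most 0.644 RPKM. The plasminogen activators PLAU and PLAT, the latter a target of SERPINI1, read at most 1.04 and 0.668 RPKM. By contrast FURIN, a target of SERPINB8, stood at 32.6 and 31.2 RPKM in Huh1 and at 103 and 79.6 RPKM in Huh7. It was above SERPINB8 in every library. F2, whose active form SERPINC1 and SERPIND1 inhibit, was above SERPINC1 in every library. It was above SERPIND1 only in Huh1 with NCsiRNA. C1S, a target of SERPING1, stood at 75.5 and 57.5 RPKM in Huh1 and at 20.4 and 27.5 RPKM in Huh7. Thus C1S was higher in the line with less SERPING1.

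Of 14 partners, receptors and cofactors, 13 entered the fit. Of these, 3 fell, against 4.21% of all genes, and 1 rose, against 6.03%. With so few genes those shares say nothing about the list. KNG1, the kininogen from which kallikrein releases bradykinin, a step restrained by SERPING1, stood at 5.37 and 2.48 RPKM in Huh1 and at 3.14 and 0.799 RPKM in Huh7. It fell by 1.04 (adjusted p = 0.00431, limma), about as much as SERPINF2. In plain RPKM it was past 2-fold in both lines, and on the log2(RPKM + 1) scale in Huh7. GPC3, a cell-surface proteoglycan, fell by 0.42 (adjusted p = 0.0379, limma), and MCFD2, part of a cargo receptor for secreted coagulation factors, by 0.40 (adjusted p = 0.0301, limma).

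The difference between the lines was then described at each siRNA, over genes with at least 1 RPKM in either library. With NCsiRNA, 7 of 20 serpins were at least 2-fold higher in Huh7, against 17% of 11896 genes, and 4 were at least 2-fold lower, against 10.2%. With CDCA8siRNA, 7 were higher, against 17.4% of 12005 genes, and 3 were lower, against 10.1%. By limma with the siRNA as a covariate and Benjamini-Hochberg adjustment over 12148 genes, 10 serpins were higher in Huh7, against 42.5% of genes, and 9 were lower, against 28.7%. Here the spread is that between the 2 siRNAs, and a gene that passed the minimum through 1 line alone, such as SERPINC1, SERPINA3 or SERPINA7, had to differ.

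**Figure D4:**
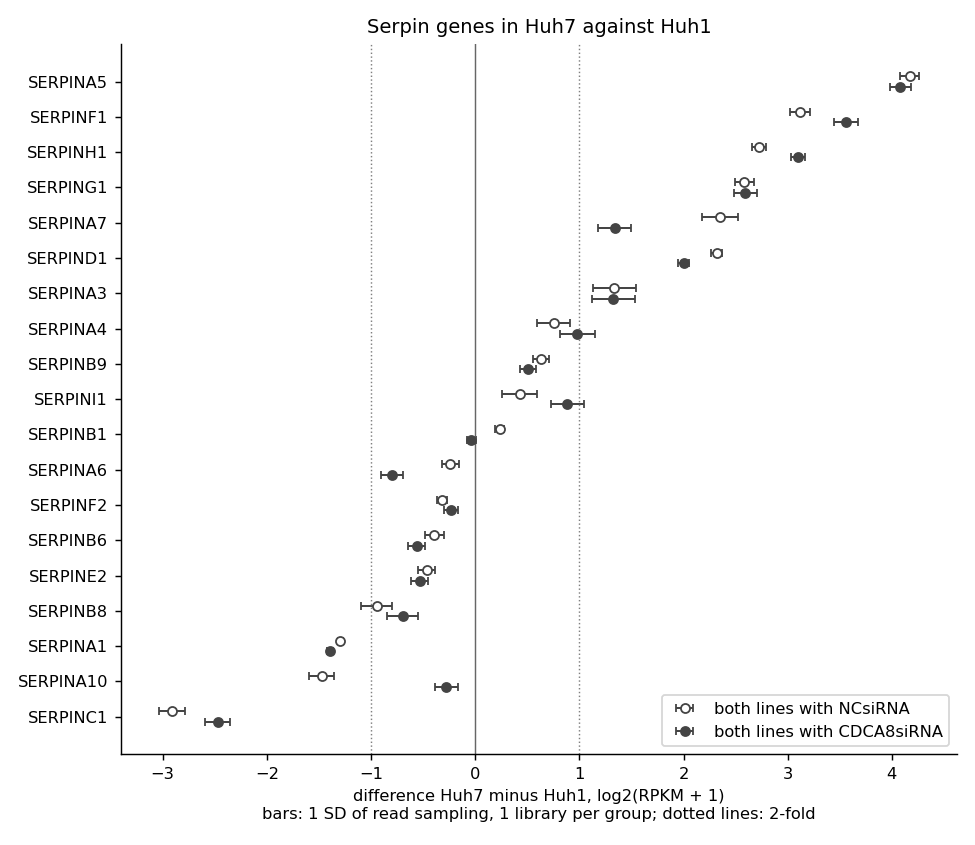
Difference of log2(RPKM + 1) between Huh7 and Huh1 for 19 of the 20 serpins with at least 1 RPKM, with NCsiRNA (open) or CDCA8siRNA (filled), 1 library per group, bars of 1 SD of read sampling and dotted lines at 2-fold. SERPINA5 lies farthest right near 4 and SERPINC1 farthest left, and for SERPINA7 and SERPINA10 the points of the 2 siRNAs lie well apart.

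On the log2(RPKM + 1) scale the serpins higher in Huh7 were led by SERPINA5, whose RPKM was 20.7-fold higher with NCsiRNA and 20.3-fold with CDCA8siRNA (coefficient 4.13, SE 0.095, adjusted p = 5.72e-09, limma). SERPINF1 was 9.44-fold and 13.5-fold higher (coefficient 3.34, adjusted p = 5.94e-08, limma). SERPINH1 was 6.92-fold and 9.07-fold higher (coefficient 2.91, adjusted p = 7.67e-08, limma). These genes belong to 3 clades and lie on 3 chromosomes. SERPING1 was 6.53-fold and 6.96-fold higher and SERPIND1 5.13-fold and 4.12-fold. SERPINA3 was 4.68-fold and 4.83-fold higher, on at most 64 reads. SERPINA7 was 22.6-fold higher with NCsiRNA and at least 10.8-fold with CDCA8siRNA, where about 30 reads stood against 0 and the bound uses 3 reads.

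The serpins higher in Huh1 were led by SERPINC1, 135-fold with NCsiRNA from 148 reads against 1 (95% counting interval 23.8 to 5363), and at least 29.7-fold with CDCA8siRNA from 96 reads against 0. SERPINA1 was 2.46-fold and 2.63-fold higher (coefficient -1.34, adjusted p = 6.64e-07, limma). SERPINA1 and SERPINA5, both in the chromosome 14 cluster, thus differed in opposite directions. SERPINA10 was 3.14-fold higher in Huh1 with NCsiRNA but 1.24-fold with CDCA8siRNA, and its limma call (adjusted p = 0.00838) was lost without the filter (0.101) and without the siRNA covariate (0.0526). SERPINB8 was 3.29-fold and 2.07-fold higher in Huh1, while on the log2(RPKM + 1) scale the differences were -0.95 and -0.70, under 2-fold.

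Smaller line differences made up the rest. SERPINA4 (0.75 and 0.98), SERPINB9 (0.63 and 0.51) and SERPINI1 (0.43 and 0.89) were higher in Huh7, in log2(RPKM + 1) with NCsiRNA and CDCA8siRNA. SERPINE2 (-0.47 and -0.54), SERPINB6 (-0.39 and -0.56), SERPINA6 (-0.24 and -0.80) and SERPINF2 (-0.32 and -0.23) were lower there. Without the siRNA covariate the limma calls of SERPINA6, SERPINB6, SERPINF2 and SERPINI1 were lost (adjusted p from 0.0653 to 0.633). SERPINB1 alone of the 20 did not pass in the model with it (0.24 and -0.038, coefficient 0.099, adjusted p = 0.375, limma). The median over all genes was 0.14 with either siRNA and went to 0.016 with NCsiRNA and 0.0095 with CDCA8siRNA after quantile normalization, and no serpin difference between the lines changed sign under it.

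SERPINH1 is known to bind procollagen, and the collagens of the list differed between the lines in both directions. COL1A1 stood at 0.115 and 0.122 RPKM in Huh1 and at 107 and 125 RPKM in Huh7. COL5A2 stood at 11.9 and 16.7 RPKM in Huh1 and at 131 and 165 RPKM in Huh7. COL4A2 had the opposite order, at 11.9 and 11.9 RPKM in Huh1 and 0.172 and 0.208 RPKM in Huh7. With NCsiRNA, 7 of the 10 collagens at 1 RPKM or more were at least 2-fold higher in Huh7, against 17% of all genes, and 3 were at least 2-fold lower, against 10.2%, including COL4A1 and COL5A1. Only 2 of the 10 collagens reached 1 RPKM in both lines. The others, COL1A1, COL1A2, COL3A1, COL4A1, COL4A2, COL4A5, COL5A1 and COL6A1, passed the minimum through 1 line alone and had to differ. The shares of all genes are therefore no measure for these collagens. After knockdown COL5A2 rose by 0.39 (adjusted p = 0.0292, limma), 1 of 2 collagens in that fit, while SERPINH1 differed by -0.19 ± 0.088 in Huh1 and 0.19 ± 0.035 in Huh7 (coefficient 0.0035, adjusted p = 0.987, limma).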

How the data were processed

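RNA-seq values of 4 libraries (Huh1 and Huh7, NCsiRNA or CDCA8siRNA) were used, and none was left out. The authors deposited 1 value per RefSeq transcript without a stated unit. The deposited values were taken as RPKM, since multiplied by GENCODE release 29 transcript length low values step in whole reads, by 1 constant for each library. The submitters' processing notes name CASAVA 1.8.2, TopHat2 2.0.9 and hg19, and the counting step is not given in the sources used here. Lengths were matched by RefSeq identifier for 31 serpins and by symbol for SERPINF1 and SERPING1. Of 24 serpin values between 0.5 and 20 reads, 20 lay within 0.1 of a whole read. Depth was 13384836, 13193713, 12197606 and 12266642 reads, and reads served to describe precision only.

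Differences were taken on log2(RPKM + 1), called at 2-fold, over genes with at least 1 RPKM in either library. limma 3.58.1 in R 4.3.3 (lmFit, eBayes with trend) was fitted with Benjamini-Hochberg adjustment at 0.05. Its prior degrees of freedom were 8.29 for the knockdown and 7.48 for the lines. The steps were tested on simulated data. The ANOVA method of the study could not be repeated with 1 library per group. Alternatives were a pseudocount of 0.1, no filter, a minimum of 5 RPKM, upper quartile and quantile scaling, no covariate and no trend, and genes with at least 1 RPKM in each line for the line fit. A further filter, at least 1 RPKM in any library for the knockdown fit, was added after seeing the data. The members, gene lists and tests were chosen with earlier results of these data known. All serpins but 1 were named, and 1 member and 1 gene of the lists are not reported here by name, although the counts include them. Other genes were named if past a threshold or beside their serpin.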

Additional observations from a re-analysis of the deposited data

Results flagged for a closer look

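The knockdown differences of 4 serpins had opposite signs in Huh1 and Huh7, in log2(RPKM + 1). SERPINA10 differed by -0.50 in Huh1 and 0.70 in Huh7, a gap of 1.199 or 7.59 sampling SDs. SERPINB1 differed by 0.24 and -0.033, a gap of -4.61 sampling SDs (Huh7 minus Huh1). SERPINH1 differed by -0.19 and 0.19, a gap of 3.97 sampling SDs. SERPINB9 differed by 0.087 and -0.035, a gap of -1.15 sampling SDs, which read sampling alone often gives. These 4 were picked by sign. Members with the same sign in both lines also had wide gaps, among them SERPINA6 (-4.17 sampling SDs) and SERPIND1 (-4.13). With 1 library per group the difference between the lines was not tested in any of them. The sampling SD holds no spread between cultures.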

How the results depend on the processing

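With 1 library per group, leaving out a replicate would remove a whole condition and could not be done. No paired analysis was possible because the labels give no replicate numbers, beyond the pairing within a cell line that the knockdown model already holds. The depth limited genes at 0 to 5 reads, among them SERPINA7 in Huh1 and SERPINC1 in Huh7. The differences of single serpins between 1 library and 1 other gave 373 values under the alternatives. Of these, 356 stayed within sampling error and 17 moved, none changing sign. However, 77 of the 356 came without a filter and 65 with the minimum of 5 RPKM, settings that cannot move such a difference. With the pseudocount of 0.1, quantile and upper quartile scaling, 11, 5 and 1 values moved while 66, 72 and 76 stayed. Of the limma values, 254 of 288 kept their side of the threshold and their sign, 30 lost the threshold, 2 passed it and 2 changed sign. Those were SERPINH1 after knockdown, -0.0010 with a pseudocount of 0.1, and SERPINB9, -0.0077 after quantile normalization, both uncalled. The cause of these changes was not tested.

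With a pseudocount of 0.1 the genes at least 2-fold higher after knockdown numbered 107 in Huh1 and 269 in Huh7 (35 and 101 with 1 added), and those lower 57 and 153 (19 and 81). After quantile normalization 22 were higher and 20 lower in Huh1, and between the lines with CDCA8siRNA 1680 were higher and 1490 lower, against 2089 and 1213. The limma knockdown fit called 625 genes higher and 436 lower, with 2694 of 10357 at an unadjusted p under 0.05. It called 0 higher and 0 lower without the filter (1502 and 938 unadjusted) and again without the cell line covariate (44 and 45 unadjusted), 755 lower after quantile normalization and 267 lower without the trend. For serpins (1 higher, 6 lower) it called 0 and 0 without the filter and without the covariate, 2 higher at a minimum of 5 RPKM and after quantile normalization, 0 higher and 3 lower without the trend, and 0 higher with the filter on any library. Without the filter the lost calls had adjusted p between 0.252 and 0.314. In the line fit 9 serpins were lower, and 5 without the siRNA covariate.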
